A study of Mus musculus with 12 samples.

Results

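The effect of losing an enhancer of Cebpa was compared between 2 populations of bone marrow: CMP, the common myeloid progenitors, and LSK, which holds stem cells and early progenitors. The quantity tested for each gene was the difference of genotype effects: the log2 ratio of enhancer-null over wild type in CMP, minus the same ratio in LSK. All 12 of the 12 RNA-seq libraries entered it, in 4 groups of 3, chosen by the genotype and cell type in their titles. All mice were C57BL/6. Wild-type mice were the controls, and enhancer-null mice lacked both copies of the enhancer 42 kb downstream of Cebpa. No other allele or agent is named in the labels, and neither are the age of the mice, the gates used for sorting or any pooling of animals. A positive difference means that enhancer loss moved a gene further up in CMP than in LSK, and a negative difference the reverse. Levels are CPM, a gene's counts scaled to library size, and values are given in the order of wild-type replicates 1, 6 and 8 and enhancer-null replicates 1, 2 and 7.

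Cebpa encodes C/EBPα, a basic leucine zipper transcription factor that commits blood progenitors to the granulocyte and monocyte lineages. LSK cells are lineage-negative and carry Sca-1 and Kit on their surface, and CMP lie downstream of them, with Kit but without Sca-1. Along that step myeloid genes such as Mpo are normally switched on, and genes of stem cells and of other lineages are switched off.

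Cebpa itself was read first. Its counts were 544, 270 and 463 in wild-type CMP and 0, 3 and 0 in enhancer-null CMP. In LSK they were 226, 118 and 39 in wild type and 1, 0 and 15 in the enhancer-null libraries. Both genotypes thus stood apart in each cell type, with all enhancer-null libraries below all wild-type ones. Summed counts scaled to depth were 295 times higher in wild type in CMP (exact 95% interval 101 to 1430) and 25.6 times higher in LSK (15.5 to 45.2), intervals that cover counting error only. The difference of effects was −3.14 ± 1.97 (log2, SE), which did not pass (adjusted p = 0.783, edgeR quasi-likelihood test). The relative loss of Cebpa could thus not be shown to differ between the cell types.

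Total gene counts ran from 6170491 to 49149674 per library. Ly6a, which encodes Sca-1, had means of 4.88 and 7.40 CPM in wild-type and enhancer-null CMP and of 154 and 179 CPM in the LSK groups, low in CMP and high in LSK as the names of the populations imply. Enhancer-null CMP replicate 1 and wild-type LSK replicate 6 had most genes at 0. These were 3.59% and 1.86% of the 9047 genes of at least 10 CPM on average. The other 10 libraries had up to 1.56%. Wild-type CMP replicate 6 had been counted on another set of gene symbols (23456 against 24420 in the other 11 files). Replicates are not stated to be separate animals, so p-values measure the spread between these libraries.

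Of 12411 genes tested, 36 passed at an adjusted p under 0.05 (0.29%). The difference was positive for 27 (0.218%) and negative for 9 (0.0725%). At an unadjusted p under 0.05 there were 575 positive and 387 negative genes, and the median difference of all tested genes was 0.01. The positive genes included Ctla2a, Ifitm1, Cd63, Angpt1, Gata2 and Ier3, and the negative ones Mpo, Ctsg, Irf8, Csf1r and Tcf7. Within the same fit, enhancer-null CMP had 175 genes higher (1.41%) and 54 lower (0.435%) than wild-type CMP. Enhancer-null LSK had 23 higher (0.185%) and 2 lower (0.0161%). In a bulk sample, a change in the share of cells that carry a transcript and a change of its level per cell cannot be told apart.

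**Figure D1:**
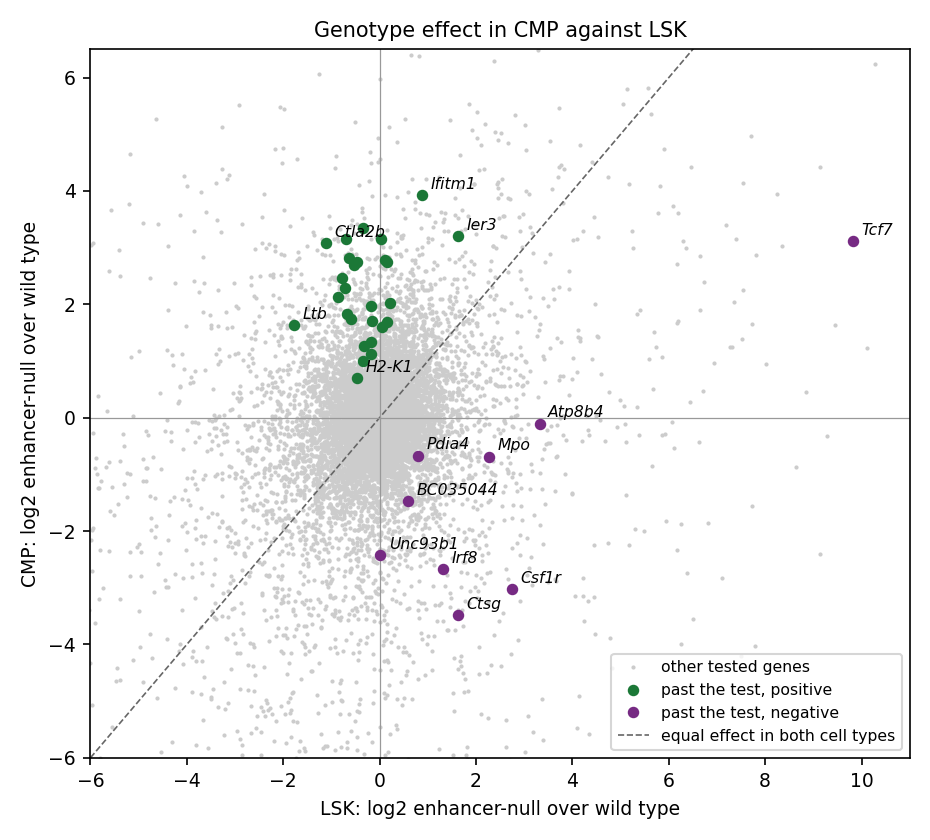
Genotype effect in CMP (vertical axis) against that in LSK (horizontal axis), both as log2 of enhancer-null over wild type, for the genes tested (grey) and the 36 that passed (green positive, purple negative); grey genes with larger fitted effects lie outside the axes. The 27 green points lie above the dashed line of equal effects, most near 0 in LSK, and the 9 purple points below it, with Tcf7 at 9.81 in LSK and 3.11 in CMP.

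The genes fell into shapes by their effect in each cell type, with 1 on the log2 scale as the limit. Of the 27 positive genes, 23 were moved in CMP alone, a shape that 15.9% of all tested genes had. Ctla2b and Ltb were moved in opposite directions, Ier3 upward in both, and H2-K1 by less than 1 in each. Among the 9 negative genes, Irf8, Csf1r and Ctsg were lower in enhancer-null CMP and higher in enhancer-null LSK by fitted values of at least 1. Unc93b1 and BC035044 were moved in CMP alone, Mpo and Atp8b4 in LSK alone, Tcf7 upward in both, and Pdia4 by less than 1 in each. By its own test 26 of the 27 positive genes passed in CMP and 1, Ier3, in LSK. Of the negative genes 6 passed in CMP, and Tcf7, Mpo and Atp8b4 passed in LSK.

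The same 36 genes can be read as the step from LSK to CMP within each genotype, since the difference of effects is the enhancer-null step minus the wild-type step. In wild type all 27 positive genes were lower in CMP than in LSK by at least 1 on the log2 scale, where 19.5% of all tested genes were. Their median step was −2.54 in wild type and −0.12 in the enhancer-null libraries. All 9 negative genes were higher in wild-type CMP than in wild-type LSK by at least 1 (13% of all tested genes), with a median step of 3.35, against −0.34 in the enhancer-null libraries. The wild-type step passed the test for all 36 genes and the enhancer-null step for 0 of 36. Over all tested genes, the wild-type step passed for 235 upward and 241 downward, and the enhancer-null step for 17 and 19. Every wild-type CMP library lay below each of the other 9 libraries for all 27 positive genes, which held for 433 tested genes (3.49%). These counts describe the genes and have no test of their own, because a large wild-type step goes with a large difference by construction.

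**Figure D2:**
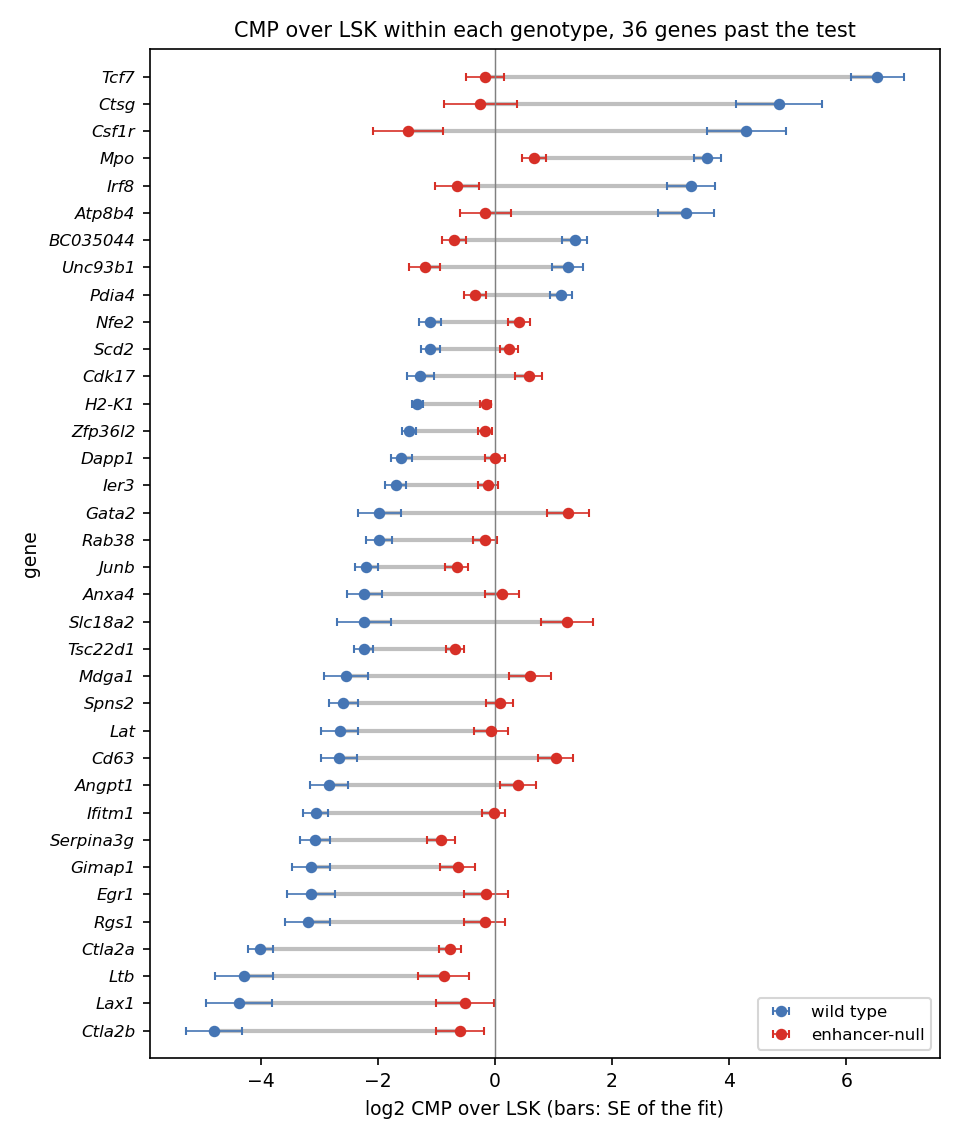
Step from LSK to CMP (log2 of CMP over LSK, horizontal axis) in wild type (blue) and enhancer-null libraries (red) for the 36 genes that passed, with bars for the SE of the fit. Every blue point lies at least 1 from 0, and the red points of 24 positive and 7 negative genes lie within 1 of it.

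The negative genes held several that myeloid progenitors switch on. Irf8 encodes a transcription factor required for monocytes and dendritic cells. Its level was 508, 604 and 399.7 CPM in wild-type CMP and 85.3, 79.8 and 71.9 CPM in enhancer-null CMP. In LSK it was 27.1, 55.6 and 66.0 CPM in wild type and 148, 167 and 57.3 CPM in the enhancer-null libraries. The CMP groups did not overlap, and the LSK groups overlapped through enhancer-null replicate 7. The effect was −2.67 in CMP (adjusted p = 0.0037) and 1.32 in LSK (adjusted p = 0.318), and the difference was −4.0 ± 0.55 (adjusted p = 0.00974). Csf1r, the receptor for macrophage colony-stimulating factor, had 98.4, 178 and 146 CPM in wild-type CMP against 4.95, 23.2 and 23.5 CPM in enhancer-null CMP. In LSK it had 10.3, 5.04 and 6.09 CPM in wild type and 81.2, 40.3 and 22.7 CPM in the enhancer-null libraries. Neither pair of groups overlapped, and they were ordered in opposite ways. Its difference was −5.77 ± 0.89 (adjusted p = 0.0192), and −4.89 by limma-voom, which did not call it (adjusted p = 0.213). It was fitted as −3.03 in CMP, which passed (adjusted p = 0.0282), and 2.75 in LSK, which did not (adjusted p = 0.143). Exons of Csf1r and of Hmgxb3 on the opposite strand overlap, and without strand their reads cannot be told apart there.

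Mpo and Ctsg encode myeloperoxidase and cathepsin G, enzymes of the primary granules of neutrophil precursors. Mpo had 4905, 4517 and 4176 CPM in wild-type CMP and 2728, 2401 and 3310 CPM in enhancer-null CMP. In LSK the values were 448, 311 and 342 CPM in wild type and 1791, 2313 and 1213 CPM in the enhancer-null libraries. The groups did not overlap in either cell type: enhancer-null libraries were lower in CMP and higher in LSK. Only the LSK effect passed its own test (2.27, adjusted p = 0.000382, against −0.69 in CMP, adjusted p = 0.13), and the difference was −2.96 ± 0.30 (adjusted p = 0.000728). For Ctsg, wild-type CMP had 238, 155 and 144 CPM and enhancer-null CMP 22.5, 12.1 and 13.5 CPM. Its LSK values were 10.4, 1.63 and 6.48 CPM in wild type and 31.1, 19.6 and 6.62 CPM in the enhancer-null libraries, groups that overlapped. The difference was −5.10 ± 0.93 (adjusted p = 0.0458), a call kept in 3 of 12 fits with a library left out and not made by limma-voom (adjusted p = 0.262).

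Tcf7 encodes TCF-1, a transcription factor of T cells and of Wnt signalling, and it had the largest negative difference among the genes that passed. Its level was 0.201, 0.213 and 0.127 CPM in wild-type LSK, from 7, 3 and 2 counts, and 188, 233 and 92.1 CPM in enhancer-null LSK. In CMP it was 14.2, 21.1 and 17.3 CPM in wild type and 164, 158 and 133 CPM in the enhancer-null libraries. The 6 enhancer-null libraries thus lay above the 6 wild-type ones, and the 2 enhancer-null groups overlapped each other. Tcf7 rose in CMP (3.11 ± 0.35, adjusted p = 0.000671) and in LSK (9.81 ± 0.50, adjusted p = 9.27e-07), and the difference was −6.70 ± 0.55 (adjusted p = 0.000207). limma-voom gave −6.01 and did not call it (adjusted p = 0.213). The LSK value rests on 12 wild-type counts: wild type over enhancer-null was 0.00151 there (exact 95% interval 0.000782 to 0.00265) and 0.112 in CMP (0.105 to 0.12). These intervals do not overlap, and they cover counting error only. Cd3e, Cd3d and Cd3g, which encode the CD3 chains of the T cell receptor complex, had group means of at most 1.01 CPM and were not tested.

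Atp8b4, a phospholipid-transporting ATPase, had 221, 211 and 189 CPM in wild-type CMP and 162, 158 and 258 CPM in enhancer-null CMP, groups that overlapped. The LSK libraries held 40.9, 9.30 and 14.2 CPM in wild type and 168, 297 and 183 CPM in the enhancer-null libraries, without overlap. It lay just inside the threshold (−3.42 ± 0.64, adjusted p = 0.0499) and passed in 1 of 12 fits that each left out a library. Just outside it lay Clec12a, an inhibitory myeloid lectin receptor (−2.87 ± 0.54, adjusted p = 0.0525). Unc93b1, which carries Toll-like receptors to endosomes, had the reverse arrangement. It fell in CMP from 281, 290 and 222 CPM to 38.7, 40.0 and 69.0 CPM and was fitted at 0.02 in LSK, where the groups overlapped (difference −2.44 ± 0.38, adjusted p = 0.0196). Pdia4, a disulfide isomerase of the endoplasmic reticulum, passed only as a difference (−1.47 ± 0.26, adjusted p = 0.0373), with −0.67 in CMP and 0.80 in LSK, and in 1 of the 12 fits with a library left out. BC035044, named here after its values were seen, differed by −2.06 ± 0.30 (adjusted p = 0.0118).

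**Figure D3:**
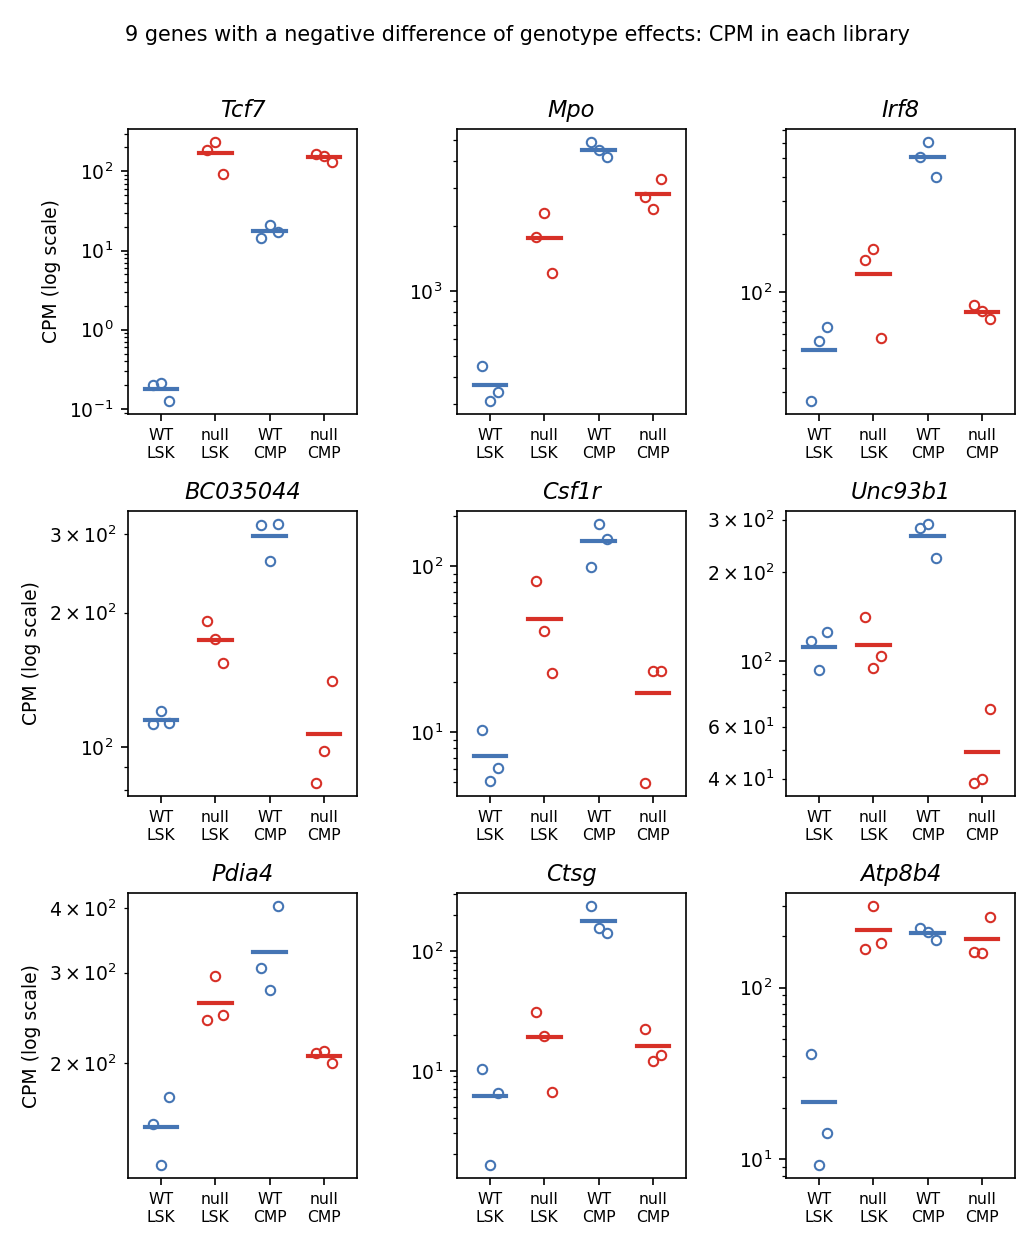
CPM on log axes in each of the 12 libraries for the 9 genes with a negative difference (circles, libraries; lines, group means of 3; blue, wild type; red, enhancer-null). For Irf8, Csf1r, Ctsg, Mpo, Unc93b1 and BC035044 the wild-type CMP libraries stand above the other 9. For Tcf7 the wild-type LSK libraries lie at 0.127 to 0.213 CPM.

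A letter pattern bound by C/EBP factors, TTGCNNAA, was counted on both strands in RefSeq promoter windows (build GRCm38.p6, 250 bases before to 50 after a start). It was present for 10.3% of the 9459 tested genes matched by symbol, for 2 of 19 matched positive genes and for 0 of 7 matched negative genes. The 2 are Dapp1 and Anxa4, with the match starting 163 and 208 bases before the start. The 250 bases before the start of Dapp1 (chr3:137981550-137981799, minus strand) are shown with the match in capitals, beside those of Irf8 (chr8:120736108-120736357, plus strand), a regulator among the negative genes, in which these letters do not occur.
Dapp1: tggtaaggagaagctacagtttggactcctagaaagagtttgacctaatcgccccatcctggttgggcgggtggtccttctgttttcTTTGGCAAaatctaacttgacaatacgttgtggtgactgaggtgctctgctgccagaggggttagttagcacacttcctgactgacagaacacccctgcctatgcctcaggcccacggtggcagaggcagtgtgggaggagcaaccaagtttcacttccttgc
Irf8: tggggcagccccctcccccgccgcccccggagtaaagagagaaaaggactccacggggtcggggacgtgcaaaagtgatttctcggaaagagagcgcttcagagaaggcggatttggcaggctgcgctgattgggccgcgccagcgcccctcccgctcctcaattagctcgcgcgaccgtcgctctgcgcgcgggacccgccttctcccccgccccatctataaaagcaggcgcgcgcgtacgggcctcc

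Ctla2a and Ctla2b were among the positive genes with the largest wild-type steps. Both encode small proteins related to the propeptide of cysteine proteases, and they are neighbouring copies on the minus strand (chr13:60934155-60936625 and chr13:60895350-60897447, mm10). Their promoters are shown because the genes moved together and are close relatives. The 250 bases before each start (chr13:60936626-60936875 and chr13:60897448-60897697) were identical in 208 of 272 aligned columns (76.5%). Gaps made up 44 of the columns, among them the runs of capitals at the outer ends, where one window runs past the other. Ctla2a has another annotated start, and the one that aligned best was used. Capitals mark bases that differ or face a gap in that alignment.
Ctla2a: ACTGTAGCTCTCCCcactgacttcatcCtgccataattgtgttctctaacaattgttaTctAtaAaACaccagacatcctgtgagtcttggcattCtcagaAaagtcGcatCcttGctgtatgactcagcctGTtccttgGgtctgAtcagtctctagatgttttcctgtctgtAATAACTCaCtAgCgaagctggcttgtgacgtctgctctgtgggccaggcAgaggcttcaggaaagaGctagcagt
Ctla2b: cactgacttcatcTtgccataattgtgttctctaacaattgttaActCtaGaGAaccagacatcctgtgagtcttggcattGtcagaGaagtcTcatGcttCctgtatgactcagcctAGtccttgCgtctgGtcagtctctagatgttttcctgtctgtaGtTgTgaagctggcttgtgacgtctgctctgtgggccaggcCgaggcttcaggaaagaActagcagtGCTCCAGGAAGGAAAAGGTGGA

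Ctla2a had 44.0, 29.7 and 37.3 CPM in wild-type CMP and 239, 158 and 214 CPM in enhancer-null CMP. Levels in LSK were 540, 618 and 631 CPM in wild type and 312, 362 and 365 CPM in the enhancer-null libraries. The groups did not overlap in either cell type and were ordered in opposite ways. Its effect was 2.46 in CMP (adjusted p = 6.52e-05) and −0.78 in LSK (adjusted p = 0.186), and the difference was 3.24 ± 0.27 (adjusted p = 0.000207). Ctla2b had 9.28, 5.77 and 2.20 CPM in wild-type CMP and 65.6, 39.7 and 42.4 CPM in enhancer-null CMP. Its LSK values were 151, 168 and 164 CPM in wild type and 63.8, 82.4 and 76.8 CPM in the enhancer-null libraries, the same order as for Ctla2a. The difference was 4.20 ± 0.60 (adjusted p = 0.0118). Of the 75-base windows in annotated transcripts, 16% for Ctla2a and 63% for Ctla2b also occur in a transcript of another gene, in both cases most often Gm49391, so the counts of both are uncertain.

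Ifitm1, an interferon-induced membrane protein, had 34.6, 36.4 and 40.3 CPM in wild-type CMP and 722, 485 and 480 CPM in enhancer-null CMP. Its LSK levels were 268, 322 and 339 CPM in wild type and 657, 605 and 446 CPM in the enhancer-null libraries. Enhancer-null libraries lay above wild type in both cell types, and the rise passed in CMP (3.92, adjusted p = 2.82e-06) and not in LSK (0.88, adjusted p = 0.131). The difference was 3.04 ± 0.28 (adjusted p = 0.000411). Cd63, a tetraspanin of late endosomes and secretory granules, had 50.4, 22.8 and 27.0 CPM in wild-type CMP and 436, 300.3 and 289 CPM in enhancer-null CMP. Its LSK groups overlapped, at 212, 255 and 171 CPM in wild type and 170, 183 and 147 CPM in the enhancer-null libraries. The difference was 3.70 ± 0.42 (adjusted p = 0.00203).

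Angpt1 and Gata2 are genes of stem cells: angiopoietin 1 is the ligand of the Tie2 receptor, and GATA2 is a transcription factor of stem cells and mast cells. Angpt1 had 113, 74.1 and 62.2 CPM in wild-type CMP and 783, 351 and 547 CPM in enhancer-null CMP. In LSK it had 420, 812 and 547 CPM in wild type and 433, 408 and 438 CPM in the enhancer-null libraries, which overlapped. The difference was 3.23 ± 0.44 (adjusted p = 0.00928). Gata2 had 52.0, 52.5 and 80.0 CPM in wild-type CMP against 627, 378 and 187 CPM in enhancer-null CMP. The LSK libraries held 212, 315 and 198 CPM in wild type and 161, 176 and 164 CPM in the enhancer-null libraries. The CMP rise was 2.69 (adjusted p = 0.00242), the LSK effect −0.53 (adjusted p = 0.792) and the difference 3.22 ± 0.51 (adjusted p = 0.0206). The enhancer-null CMP libraries spread over more than the LSK groups, with replicate 7 below all wild-type LSK libraries.

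Ier3, an immediate early gene that acts on cell survival, was the positive gene that rose in both cell types. It had 49.9, 33.3 and 44.5 CPM in wild-type CMP and 438, 339 and 401 CPM in enhancer-null CMP. In LSK it rose from 133, 147 and 134 CPM to 443, 428 and 410 CPM. The enhancer-null groups thus reached overlapping levels from different starting levels. The rises were 3.20 in CMP (adjusted p = 2.82e-06) and 1.63 in LSK (adjusted p = 0.00124), and the difference was 1.57 ± 0.25 (adjusted p = 0.0205), which passed in 6 of 12 fits with a library left out.

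H2-K1, a classical major histocompatibility class I chain, had the smallest difference among the genes that passed. It had 1113, 959 and 1098 CPM in wild-type CMP and 1860, 1552 and 1747 CPM in enhancer-null CMP. Levels in LSK were 2582, 2697 and 2649 CPM in wild type and 1931, 1973 and 1854 CPM in the enhancer-null libraries. The groups did not overlap in either cell type and were ordered in opposite ways. The difference was 1.16 ± 0.13 (adjusted p = 0.00203), made of 0.70 in CMP and −0.46 in LSK. Spns2, an exporter of sphingosine 1-phosphate, rose in CMP from 61.9, 48.0 and 65.3 CPM to 422, 373 and 414 CPM. In LSK it stood at 251, 517 and 287 CPM in wild type and at 380, 386 and 377 CPM in the enhancer-null libraries (difference 2.67 ± 0.34, adjusted p = 0.00469). Its exons overlap those of Mybbp1a on the opposite strand. Zfp36l2, an RNA-binding protein that speeds the decay of messenger RNAs, differed by 1.29 ± 0.16 (adjusted p = 0.00469). Tsc22d1, a leucine zipper regulator of transcription, differed by 1.56 ± 0.22 (adjusted p = 0.0118), and Dapp1, a lipid-binding adaptor of lymphocyte signalling, by 1.60 ± 0.24 (adjusted p = 0.0178). All 3 rose in CMP, by 1.12, 1.61 and 1.27, and their LSK effects were −0.17, 0.05 and −0.33.

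**Figure D4:**
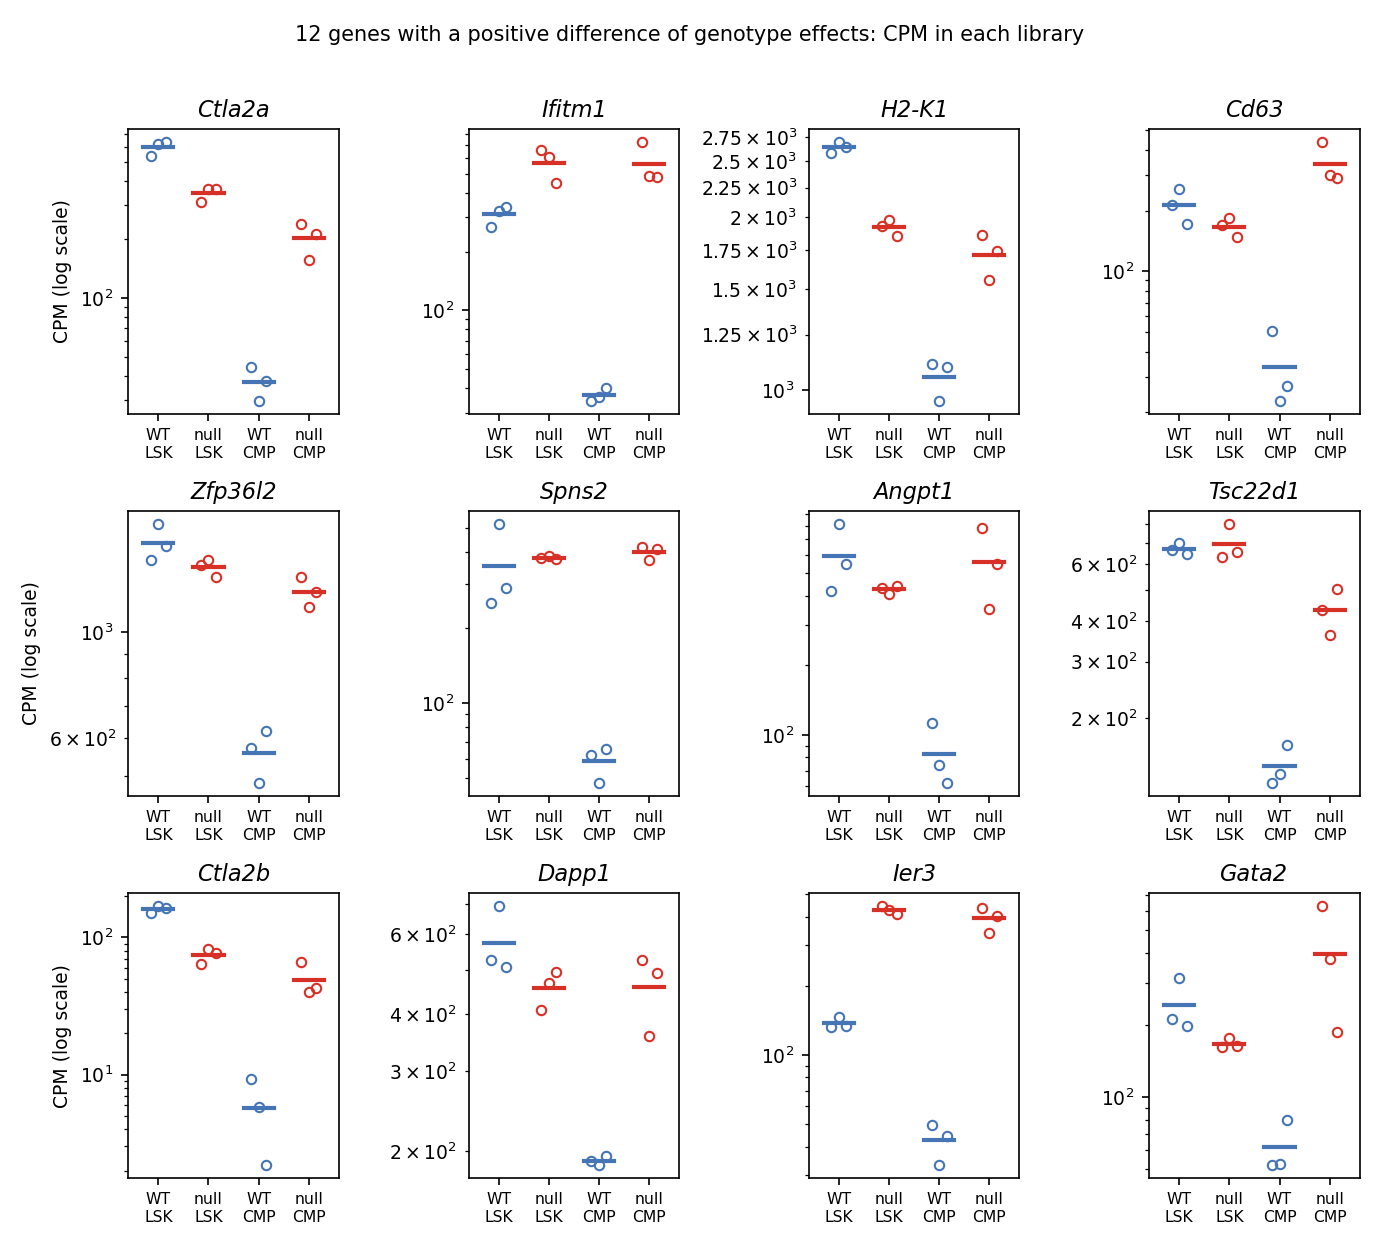
CPM on log axes in each of the 12 libraries for the 12 positive genes with the smallest p (circles, libraries; lines, group means of 3; blue, wild type; red, enhancer-null). In each panel the wild-type CMP libraries are the lowest of the 12.

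The other 15 positive genes had differences from 1.34 (Scd2) to 3.86 (Lax1), and the highest adjusted p among them was 0.0499 (Lax1). Lat and Lax1 encode adaptors of antigen receptor signalling, Rgs1 a regulator that dampens chemokine receptors, Ltb lymphotoxin beta and Gimap1 a GTPase. Lat had means of 12.3 ± 0.6 CPM in wild-type CMP and 82.5 ± 24.4 CPM in enhancer-null CMP (SD, n = 3), against 77.4 ± 19.4 and 86.3 ± 5.1 CPM in LSK. Ltb had 6.81 ± 3.18 and 21.2 ± 9.4 CPM in CMP against 133 ± 30 and 38.7 ± 6.2 CPM in LSK, so that its enhancer-null level was the higher in CMP and the lower in LSK. Neither of its effects passed alone (adjusted p = 0.0939 in CMP and 0.212 in LSK), and the difference passed in 1 of 12 fits with a library left out and not by limma-voom (adjusted p = 0.214). For Lat these were 4 of 12 and an adjusted p of 0.149. Slc18a2, the vesicular monoamine transporter of mast cells and platelets, had 370, 209 and 116 CPM in enhancer-null CMP against 22.8 to 51.5 CPM in wild-type CMP. Nfe2, a transcription factor of megakaryocytes, had 313 ± 38 CPM in enhancer-null CMP, 123 ± 22 in wild-type CMP and 234 to 264 CPM as LSK group means, and its difference passed in 1 of 12 fits with a library left out. Serpina3g, Mdga1, Rab38, Scd2, Anxa4 and Cdk17 were the rest, beside the immediate early genes Junb and Egr1. These genes outside the lists were named after their values were seen. Reads of Gimap1 may be shared with its antisense transcript, since 33.2% of its 75-base windows occur in another gene's transcripts. Cdk17 overlaps Elk3 on the opposite strand (4.03% of windows). Among genes described above, the share of such windows was 13.9% for Csf1r, 12.9% for Angpt1, 6.94% for Mpo and 6.47% for Cd63. For Serpina3g it was 7.69%.

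Immediate early genes were the list whose members most often lay on the positive side. Of 27 tested, 25 had a positive difference (92.6%, against 50.6% of all tested genes), with a median of 1.08. Ier3, Junb and Egr1 passed, all positive (against 0.218% of all tested genes). At an unadjusted p under 0.05, 13 were positive (48.1%, against 4.63% of all tested genes) and 0 negative. Junb, a subunit of AP-1, had 371, 242 and 212 CPM in wild-type CMP and 922, 727 and 1011 CPM in enhancer-null CMP. Its LSK groups overlapped, at 1224, 1335 and 1212 CPM in wild type and 1168, 1571 and 1447 CPM in the enhancer-null libraries (difference 1.54 ± 0.28, adjusted p = 0.0433). Exons of Junb and Prdx2 overlap on opposite strands, with 4.74% of 75-base windows shared. Egr1, a zinc finger factor, had 123, 76.6 and 53.5 CPM in wild-type CMP and 282, 228 and 602 CPM in enhancer-null CMP. Its LSK levels were 833, 825 and 587 CPM in wild type and 329.7, 331 and 579 CPM in the enhancer-null libraries, an opposite order without overlap in either cell type (difference 2.99 ± 0.55, adjusted p = 0.0458). Both calls were kept in 2 of 12 fits with a library left out, and limma-voom did not call Egr1 (adjusted p = 0.077). The summed level of the list was 4132 to 7366 CPM in wild-type CMP and 7998 to 12270 CPM in enhancer-null CMP. In LSK it was 12170 to 20930 CPM in wild type and 10380 to 14710 CPM in the enhancer-null libraries. Without the 2 libraries with most genes at 0, 0 of the 27 passed and 25 were positive, with a median of 1.26.

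Stem cell genes had a median difference of 0.93 over 37 tested, with 25 positive and 12 negative. Ifitm1, Angpt1 and Gata2 passed, all positive (against 0.218% of all tested genes). At an unadjusted p under 0.05 there were 9 on the positive side (24.3%, against 4.63% of all tested genes) and 2 on the negative side (5.41%, against 3.12%). Most members were lower in enhancer-null libraries of both cell types, and less so in CMP: 24 of 37 had a negative effect in CMP (median −0.68) and 30 of 37 in LSK (median −1.31). By their own tests 4 rose (against 1.41% of all tested genes) and 4 fell in CMP (against 0.435%). In LSK 2 fell, Lmo2 and Ifitm3 (against 0.0161%). Lmo2, a bridging protein of stem cell transcription complexes, fell by 0.87 in CMP (adjusted p = 0.0109) and by 1.62 in LSK (adjusted p = 0.000382), and the difference of 0.75 did not pass (adjusted p = 0.32). For Ifitm3 the falls were 1.24 (adjusted p = 0.00473) and 1.31 (adjusted p = 0.0151). The list's summed level was 2240 to 2493 CPM in wild-type CMP, 3021 to 3947 CPM in enhancer-null CMP, 6976 to 8967 CPM in wild-type LSK and 4709 to 5149 CPM in enhancer-null LSK. The groups did not overlap, and the distance between CMP and LSK was smaller in the enhancer-null libraries. Ifitm1, Angpt1 and Gata2 had means of 563, 560 and 398 CPM in enhancer-null CMP. In wild-type CMP they had 37.1, 83.1 and 61.5 CPM, so the higher sum in enhancer-null CMP rests on these genes that passed. It is not a rise of the list at large, since 24 of 37 members had a negative effect in CMP. Without the 2 libraries with most genes at 0, 4 stem cell genes passed, all positive, with a median of 0.95.

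Monocyte and macrophage genes were the list with the lowest median among those with at least 3 tested genes, −2.14 over 18. Of these 14 were negative and 4 positive, and Csf1r passed as negative (against 0.0725% of all tested genes). At an unadjusted p under 0.05 there were 7, all on the negative side (38.9%, against 3.12% of all tested genes). In CMP 5 fell by their own test (against 0.435% of all tested genes), and in LSK 0 passed. Mpeg1, a pore-forming protein of macrophages, had 63.9, 73.9 and 70.0 CPM in wild-type CMP and 0.118, 2.09 and 0 CPM in enhancer-null CMP. In LSK it had 7.91, 15.1 and 3.62 CPM in wild type and 1.77, 3.08 and 2.15 CPM in the enhancer-null libraries, and the difference was −4.55 (adjusted p = 0.465). The summed level of the list was 1554 to 2005 CPM in wild-type CMP, above the 167 to 368 CPM of enhancer-null CMP. In LSK it was 319 to 493 CPM in wild type and 286 to 465 CPM in the enhancer-null libraries, which overlapped. Without the 2 libraries with most genes at 0, 2 of the list passed, both negative, with a median of −2.49.

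Primary granule genes had a median of −1.28 over 19 tested, with 14 negative. Mpo and Ctsg passed, both negative (against 0.0725% of all tested genes). At an unadjusted p under 0.05 there were 5 on the negative side (26.3%, against 3.12% of all tested genes) and 1 on the positive side. The list's summed level, of which Mpo is the largest member by count, was 6458 to 8269 CPM in wild-type CMP and 4355 to 5625 CPM in enhancer-null CMP. It was 2292 to 2632 CPM in wild-type LSK and 3530 to 4819 CPM in enhancer-null LSK, so the sum had opposite orders in the 2 cell types. Mpo alone had means of 4532 and 2813 CPM in wild-type and enhancer-null CMP, and of 367 and 1772 CPM in LSK. Over the 19 members the median effect was −0.99 in CMP (13 negative) and 0.016 in LSK (10 positive, 9 negative). An opposite order was thus not shared by the list at large. In the list of late neutrophil genes, such as those of secondary granules, 0 of 16 passed, 1 had an unadjusted p under 0.05 (Padi4, a histone deiminase, 2.68, adjusted p = 0.0589), and the fitted medians were low in both cell types, −5.80 in CMP and −4.59 in LSK. Their summed level in wild-type CMP ran from 72.1 to 2361 CPM, a range that spans all enhancer-null CMP libraries (81.1 to 121 CPM). In LSK it was 478 to 1704 CPM in wild type and 151 to 209.6 CPM in the enhancer-null libraries, without overlap.

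Among the 6 tested members of the CEBP family, 0 passed, and by DESeq2 and limma-voom 0 as well. Ddit3, a stress-induced member, had an unadjusted p under 0.05 (2.06 ± 0.92, adjusted p = 0.629). Cebpb, which can act in place of C/EBPα in emergency granulopoiesis, had 115, 64.8 and 84.6 CPM in wild-type CMP and 465, 178 and 162 CPM in enhancer-null CMP. The LSK libraries held 258, 162 and 282 CPM in wild type and 471, 374 and 205 CPM in the enhancer-null libraries, and the difference was 1.03 ± 0.59 (adjusted p = 0.745). Cebpd was fitted at −2.20 (adjusted p = 0.816) and Cebpg at −0.76 (adjusted p = 0.924). Cebpe, a factor of late granulocytes, had 12 counts in enhancer-null CMP in all and 118 in wild-type CMP, with a difference of −0.09 ± 2.72. Of 19 regulators of granulocytes and monocytes, Egr1 and Irf8 passed, in opposite directions (against 0.218% positive and 0.0725% negative of all tested genes).

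T and NK cell genes held Lat, with a positive difference, and Tcf7, with a negative one, among 12 tested, of which 7 were negative (median −0.91). Of all tested genes 0.218% passed as positive and 0.0725% as negative. Their summed level was 51.1 to 81.2 CPM in wild-type CMP and 302 to 476 CPM in enhancer-null CMP. In LSK it was 152.5 to 181 CPM in wild type and 324 to 476 CPM in the enhancer-null libraries. Much of the CMP rise lay in Tcf7 and Lat, with means of 152 and 82.5 CPM in enhancer-null CMP. Their wild-type CMP means were 17.5 and 12.3 CPM. Bcl11b, a factor of T cell commitment, had group means of 37.5 CPM in enhancer-null CMP and 23.8 CPM in enhancer-null LSK, against 1.2 and 0.107 CPM in wild type (difference −2.75, adjusted p = 0.772). Ncr1, which defines NK cells, had at most 1 count in any group. The part of other cells in these sums was not tested.

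Of 11 mast cell and basophil genes tested, 3 rose in CMP (against 1.41% of all tested genes) and 2 in LSK (against 0.185%). Slc18a2 passed for the difference, as positive (against 0.218% of all tested genes). The median difference was 0.0995, with 6 positive and 5 negative. At an unadjusted p under 0.05 there were 3 positive (27.3%, against 4.63% of all tested genes) and 1 negative (9.09%, against 3.12%). Without the 2 libraries with most genes at 0, 0 of the list passed and 5 of 12 tested were positive, with a median of −0.96. Cpa3, the mast cell carboxypeptidase, rose by 4.74 in CMP (adjusted p = 0.000246) and by 5.90 in LSK (adjusted p = 0.000142), and the difference was −1.16 (adjusted p = 0.665). Gzmb, granzyme B, rose by 9.03 in CMP (adjusted p = 0.0011) and by 5.64 in LSK (adjusted p = 0.0391), with a difference of 3.39 (adjusted p = 0.475). The list's summed level was 115 to 326 CPM in wild-type CMP and 1783 to 2321 CPM in enhancer-null CMP, and in LSK 121 to 230 CPM and 426 to 822 CPM. Tpsb2, Tpsab1, Mcpt4 and Cma1, tryptases and chymases of mature mast cells, had 0 counts in enhancer-null CMP.

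The remaining lists held few or no genes that passed. Nfe2 was the member among 19 megakaryocyte genes, Ltb among 18 lymphoid genes (median −0.44, 12 negative) and Pdia4 among 20 genes of the unfolded protein response. Of 23 cytokine receptors Csf1r passed. The shares of all tested genes that passed were 0.218% on the positive and 0.0725% on the negative side. In the erythroid list 0 of 29 passed, and its wild-type step, with a median of 4.22, stood at 3.68 in the enhancer-null libraries. STAT target and inflammatory genes had 0 of 21 past the test and a median of 0.76. At an unadjusted p under 0.05 there were 5, all positive (23.8%, against 4.63% of all tested genes). Pim1, a survival kinase, had the smallest p of these (1.89 ± 0.57, adjusted p = 0.356). Interferon response genes had a median of 0.63 over 22 and 0 past the test. Respiratory chain genes had a median of −0.18 over 81, with 58 negative. Of these genes 8 lay at an unadjusted p under 0.05, all negative (9.88%, against 3.12% of all tested genes). Of 77 cytoplasmic ribosomal protein genes 0 passed, with a median of 0.04. B cell, dendritic cell, eosinophil and stromal lists, of 10, 14, 2 and 7 tested genes, held 0 that passed, and so did G2 and mitosis, DNA replication, cholesterol synthesis, glycolysis and gate marker lists. In all lists the members were compared with the whole set of tested genes by counts and medians only.

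**Figure D5:**
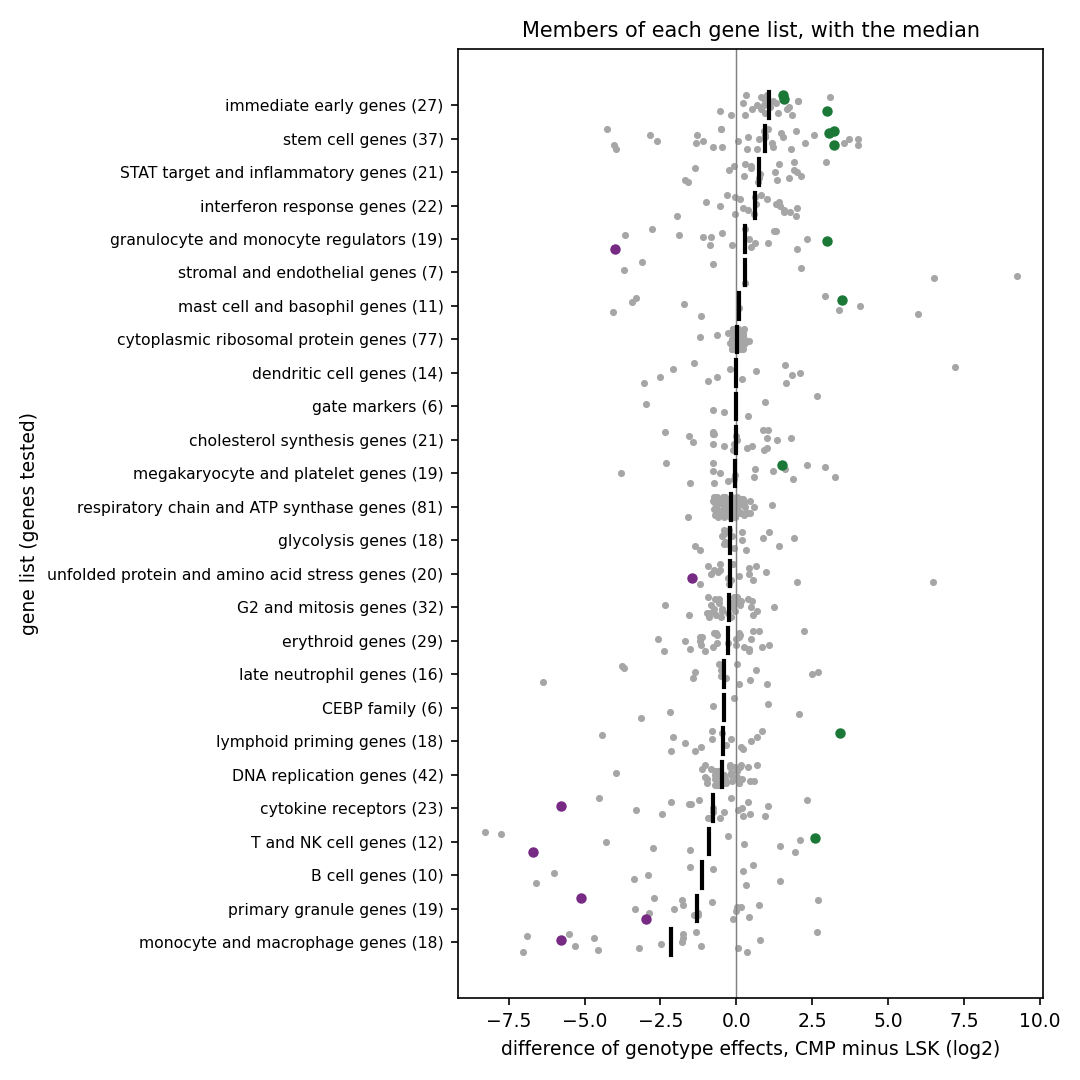
Difference of genotype effects (log2, CMP minus LSK) for the tested members of each list with at least 6 of them (points; green and purple, genes that passed; black bars, medians). Immediate early genes lie mostly to the right of 0, with a median of 1.08, and monocyte and macrophage genes mostly to the left, with a median of −2.14.

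Most genes that changed in CMP were not shown to change differently in LSK. Of the 175 genes that rose in enhancer-null CMP, 27 also passed for the difference, against 0.29% of all tested genes. These 27 include Tcf7, whose difference is negative. A positive effect in LSK was fitted for 129 of the 175, against 5772 of all 12411 tested genes. Medians of the 175 were 1.64 in CMP and 0.32 in LSK. Of the 54 that fell in CMP, 5 passed for the difference. A negative effect in LSK was fitted for 41 of the 54, against 6613 of all tested genes. Medians of the 54 were −2.0 in CMP and −0.48 in LSK. In LSK 4 of the 23 genes that rose passed for the difference (Tcf7, Mpo, Atp8b4 and Ier3). Of the 23, 10 also rose in CMP, against 1.41% of all tested genes. Both genes that fell in LSK, Lmo2 and Ifitm3, fell in CMP too (against 0.435%). For the genes that passed in CMP and not in LSK, the difference of the 2 effects was the test that bears on it, and for most it did not pass.

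Each library was left out in turn, and 11 of the 36 genes passed every one of these 12 fits: Ctla2a, Ifitm1, H2-K1, Cd63, Zfp36l2, Spns2, Angpt1, Tcf7, Mpo, Irf8 and BC035044. At the other end 19 passed in no more than 6 of the 12. Pdia4, Atp8b4, Nfe2, Ltb, Anxa4, Gimap1 and Lax1 passed in 1, and Egr1, Junb, Cdk17 and Scd2 in 2. Ctsg and Rab38 passed in 3, Slc18a2, Lat, Mdga1 and Rgs1 in 4, Serpina3g in 5 and Ier3 in 6. Without wild-type CMP replicate 6, the library counted on another symbol set, 11 of the 36 still passed, and without enhancer-null LSK replicate 1 also 11. The number that still passed was 14 without enhancer-null LSK replicate 2, 17 without replicate 7 of that group, 18 and 17 without wild-type CMP replicates 1 and 8, and 17 without wild-type LSK replicate 8. It was 22 and 21 without enhancer-null CMP replicates 1 and 7, and 24 without either wild-type LSK replicate 1 or 6. Leaving out enhancer-null CMP replicate 2 kept 34 and added 91 further genes. Tsc22d1 was lost without wild-type CMP replicate 6 or enhancer-null LSK replicate 1, and Ctla2b also without enhancer-null LSK replicate 2. Csf1r was lost without wild-type CMP replicate 6 or 8, enhancer-null LSK replicate 1 or wild-type LSK replicate 8. Without both libraries with most genes at 0, enhancer-null CMP replicate 1 and wild-type LSK replicate 6, 22 genes passed. Of these 19 were among the 36. All 36 were called by DESeq2, and 21 by limma-voom. The 15 that limma-voom did not call had differences of the same sign: Tcf7 (−6.01, adjusted p = 0.213), Csf1r (adjusted p = 0.213), Ctsg, Atp8b4, Egr1, Slc18a2, Ltb, Lat, Anxa4, Cdk17, Gimap1, Lax1, Mdga1, Scd2 and Serpina3g.

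A further gene passed when older names were linked across the symbol sets. Adgrg1, an adhesion receptor of stem cells and NK cells also known as GPR56, had 369, 474 and 521 CPM in wild-type CMP and 1722, 1335 and 1605 CPM in enhancer-null CMP. Levels in LSK were 1319, 1923 and 1415 CPM in wild type and 1510, 1278 and 1255 CPM in the enhancer-null libraries, which overlapped. Its difference was 1.98 ± 0.24 (adjusted p = 0.0034), named here after its values were seen. In the same fit Spi1, which encodes PU.1, a factor of all myeloid cells, differed by −0.07 ± 0.35 (adjusted p = 0.996).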

How the data were processed

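The 12 libraries were made from small cell numbers: carrier-assisted RNA extraction, SMARTer amplification and sequencing of 75 bp read pairs, per the labels' protocols. For every library the authors deposited a file of raw read counts by gene symbol. TopHat2 2.0.4 and TopHat, Bowtie, HTSeq and the build mm10 are listed, per the submitters' processing notes. Neither the annotation nor the way strand was treated in counting is given in the sources used here.

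Rows that name no gene held 37.2% to 46.9% of a library's counts and were left out. Files were joined on 22779 identical symbols, since wild-type CMP replicate 6 lists another set. Between 1.04% and 1.57% of a library's gene counts were not joined. List genes not joined, and so not tested, were Adgre1, Chil3, Hbb-bs, Hbb-bt, Ighm, Ly6g, Msmo1, Siglecf, Spi1 and Wfdc21.

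Group means of the 4 groups were fitted with edgeR 4.0.16 under R 4.3.3. Its robust quasi-likelihood test used TMM scaling and filterByExpr (at least 10 counts), and p-values were adjusted by Benjamini-Hochberg at 0.05. The SE is the size of the log2 fold change divided by the root of F. CPM are counts over TMM-scaled library sizes. The biological coefficient of variation was 0.82. A count of 0 allows up to 3 counts, which in these libraries is 0.061 to 0.486 CPM. Amplified reads carry no molecular identifiers, so intervals cover counting error only. Replicates of a group differed by more than counting noise (chi-square per degree of freedom 43.1 to 184).

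Named genes were the CEBP family, the 12 smallest p each way with at least 5 CPM in the highest group, filled up with genes that missed the threshold, and from each list up to 4 that passed or else the smallest p. Mpeg1, Lmo2, Ifitm3, Cpa3, Gzmb, Bcl11b and list members given by level only were named outside this rule, with their values known. The genes and lists were chosen with earlier results of these data known. Alternatives were DESeq2 1.42.0, limma-voom (limma 3.58.1), other scaling and filters, covariates, linked names and left-out libraries. Positions are from GENCODE vM21 (mm10) and promoters from RefSeq.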

Additional observations from a re-analysis of the deposited data

Results flagged for a closer look

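For 36 genes the genotype effect in CMP differed from that in LSK by a test of the difference itself (edgeR quasi-likelihood test, Benjamini-Hochberg adjustment over all tested genes). The sizes, as log2 of enhancer-null over wild type in CMP minus the same in LSK, follow. The largest positive differences were those of Ctla2b (4.20), Lax1 (3.86), Cd63 (3.70), Slc18a2 (3.46), Ltb (3.41), Ctla2a (3.24), Angpt1 (3.23), Gata2 (3.22) and Mdga1 (3.14). Further down were Ifitm1 (3.04), Rgs1 (3.02), Egr1 (2.99), Spns2 (2.67), Lat (2.58), Gimap1 (2.50), Anxa4 (2.35), Serpina3g (2.15) and Cdk17 (1.85). The smallest that passed were Rab38 (1.80), Dapp1 (1.60), Ier3 (1.57), Tsc22d1 (1.56), Junb (1.54), Nfe2 (1.52), Scd2 (1.34), Zfp36l2 (1.29) and H2-K1 (1.16). The negative differences were those of Pdia4 (−1.47), BC035044 (−2.06), Unc93b1 (−2.44), Mpo (−2.96), Atp8b4 (−3.42), Irf8 (−4.0), Ctsg (−5.10), Csf1r (−5.77) and Tcf7 (−6.70).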

How the results depend on the processing

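Among the 36 genes none changed direction in the alternatives run, but their number moved with the tool, the filter and single libraries. DESeq2 called 242 genes for the difference of effects (143 positive, 99 negative), 954 in CMP and 268 in LSK, and limma-voom called 84 in LSK. With no filter on low counts the numbers were 60 (41 positive, 19 negative) and 58 in LSK. Sex, read from Xist and Y-linked counts, was unbalanced (2 of 3 enhancer-null and 1 of 3 wild-type numbers male). As a covariate it gave 28 genes for the difference, 25 of them among the 36, and 14 in LSK. Pdia4, Atp8b4, Egr1, Slc18a2, Nfe2, Ltb, Junb, Anxa4, Cdk17, Gimap1 and Lax1 were lost. Without the 2 libraries with most genes at 0, an alternative chosen after seeing the data, 22 passed (14 positive). The causes were not tested. Fits that left out 1 library, or both of 1 genotype and number, gave 8 to 125 genes for the difference (4 to 64 positive, 3 to 61 negative), 80 to 516 in CMP and 8 to 35 in LSK. In these fits the difference of Cebpa ran from −7.01 to −1.07. Cebpe, at −0.09 with few counts, ran from −5.19 to 0.93 in them, with positive values from 0.17 up in 7, and was 1.03 without the 2 libraries.

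The numbers in the titles were not shown to pair CMP with LSK libraries. The correlation of deviations from group means was over 0.1 in 1 of 6 pairs, 2 of 6 matched their own number best, and all 6 were of the same sex. With the replicate block 6 genes passed (4 positive, 2 negative): Ifitm1, Tcf7, Egr1, Ctla2a, Cd63 and Mpo. Depth limits the genes near the floor, such as Tcf7 in wild-type LSK.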
